A study of Mus musculus with 4 samples.

Results

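The genes of the canonical WNT pathway were examined in the second heart field (SHF) region of E8.5 mouse embryos with and without Hoxb1. They were chosen by name as 44 genes, from ligands and receptors to targets, and all 44 were found among the 15803 genes listed. RNA-seq had been performed on the microdissected region from wild-type embryos (WT, 2 libraries) and from embryos homozygous for a loss of Hoxb1 (Hoxb1Mu, 2 libraries), to see how the progenitor region is altered when this homeobox gene of the posterior SHF is missing. Per the methods of the study, RNA from embryos of a genotype was pooled for a replicate, and no litter, batch or date is labelled. The mutation is present in all cells of the embryo, and the region was dissected rather than sorted. Fewer cells of a type and less RNA per cell therefore cannot be told apart in any value below.

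In the canonical pathway, a secreted WNT ligand binds a Frizzled receptor together with the co-receptor LRP5 or LRP6. This keeps a complex of AXIN, APC and GSK3B from marking beta-catenin for destruction, and beta-catenin then enters the nucleus and acts with TCF and LEF factors on target genes. Several of these targets encode inhibitors of the pathway, so their RNA is widely used as a readout of its activity. In the mouse SHF, canonical WNT signalling is known to promote the expansion of progenitors, and in frog and chick embryos WNT antagonists are known to favour heart formation.

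Values are normalised counts, that is, reads per gene after division by the size factor of the library. The libraries held from 31331595 to 34383760 reads on the listed genes. Differences are log2 fold changes of Hoxb1Mu over WT with the standard error (SE) of limma, from 2 libraries per genotype. Hoxb1 had 682 and 617 normalised counts in WT against 137 and 167 in Hoxb1Mu (-2.09 ± 0.14), in the direction of its label. All 12 SHF markers were detected, and their sum lay between 14732 and 14882 in WT and between 13998 and 14911 in Hoxb1Mu. Single markers moved in both directions beneath these sums, with 7 higher and 5 lower. DESeq2 called Tbx1 higher (0.50) and Gata4 lower (-0.31), beside 2.01% and 2.71% of all genes with an adjusted p. The study itself named Gata4 as lower in the mutant, so its direction is not independent evidence. Markers of other tissues were present too. The sum of 12 yolk sac endoderm genes was 125351 and 117922 in WT but 76993 and 35075 in Hoxb1Mu, which set Hoxb1Mu 2 apart. Primitive red blood cell genes set WT 2 apart, with a sum of 15731 against 461 to 2365 in the other libraries.

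Promoters of 32 members were at hand in RefSeq sequences on GRCm38.p6, as windows from 250 bases before to 50 bases after an annotated start. Those of 3 genes are shown, picked by name from the members whose windows hold certain letters. These are letters that TCF and LEF factors or pairs of HOX and PBX proteins are known to prefer. Capitals mark the matches on either strand: for TCF and LEF these are the word CTTTGAA, the word CTTTGAT, the word CTTTGTA and the word CTTTGTT, and for HOX-PBX the word is TGATNNAT, where N stands for any base. Dkk1, which encodes a secreted antagonist, held 2 TCF/LEF matches that begin 117 and 98 bases before the start (chr19:30549447-30549746, minus strand). Sp5, a target gene, also held 2, at 222 and 104 bases before it (chr2:70474673-70474972, plus strand). Axin2, the feedback gene, held 1 HOX-PBX match at 172 bases before the start and no TCF/LEF match (chr11:108920099-108920398, plus strand).
Dkk1: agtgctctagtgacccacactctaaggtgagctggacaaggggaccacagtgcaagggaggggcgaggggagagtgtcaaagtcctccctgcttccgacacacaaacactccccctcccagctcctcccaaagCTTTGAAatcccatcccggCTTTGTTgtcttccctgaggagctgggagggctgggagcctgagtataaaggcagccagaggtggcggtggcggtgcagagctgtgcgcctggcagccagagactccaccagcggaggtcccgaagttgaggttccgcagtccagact
Sp5: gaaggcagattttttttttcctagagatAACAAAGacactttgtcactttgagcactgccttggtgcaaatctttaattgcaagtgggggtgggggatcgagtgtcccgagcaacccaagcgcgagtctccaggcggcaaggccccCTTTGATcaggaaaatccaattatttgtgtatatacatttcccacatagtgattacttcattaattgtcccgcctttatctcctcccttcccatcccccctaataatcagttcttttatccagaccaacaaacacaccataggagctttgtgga
Axin2: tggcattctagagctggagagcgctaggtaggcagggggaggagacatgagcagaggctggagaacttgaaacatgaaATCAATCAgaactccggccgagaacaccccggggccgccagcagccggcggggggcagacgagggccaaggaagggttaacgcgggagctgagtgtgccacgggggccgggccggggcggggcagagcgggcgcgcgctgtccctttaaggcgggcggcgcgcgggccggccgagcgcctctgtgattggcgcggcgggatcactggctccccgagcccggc
The TCF/LEF letters were found in 6 of 39 windows of the members (15.4%) and in 16.9% of all 32851 windows, so they were about as frequent in both. Besides Dkk1 and Sp5 these were windows of Fzd7, Lef1, Wnt3 and Tcf7l2. The HOX-PBX letters were found in 2 of 39 (5.13%), of Axin2 and Rnf43, against 8.85% of all windows. A match describes the letters only, as binding was not measured.

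Members differed in both directions between genotypes, mostly by small amounts. The antagonist gene Sfrp5 and the receptor gene Fzd4 fell, and the inhibitor gene Apcdd1 rose in Hoxb1Mu, each by the DESeq2 test on recovered reads with Benjamini-Hochberg adjustment. The median log2 fold change was -0.012 over the members and 0.00061 over all 15760 genes tested, and 22 of the 44 members lay within 0.1 of no difference, while 3 reached 0.5 in either direction. DESeq2 gave an adjusted p to 41 members and called 1 as higher and 2 as lower. Of the 11788 genes with an adjusted p, it called 2.01% as higher and 2.71% as lower.

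limma, which was the main test, called 0 members at an adjusted p under 0.05 (smallest 0.142) and 0% of all genes. At an unadjusted limma p under 0.05 there were 5 higher and 7 lower members, beside 8.8% and 9.82% of all genes. The quasi-likelihood test of edgeR called 0 members as well, with 12 at an unadjusted p under 0.05, beside 18.3% of all genes. Even the targeted gene Hoxb1 was not called by limma (adjusted p = 0.0806) or by edgeR (0.0594). Both Hoxb1Mu libraries lay above both WT libraries for 14 members and below them for 10, beside 26.4% and 27.1% of all genes.

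**Figure D1:**
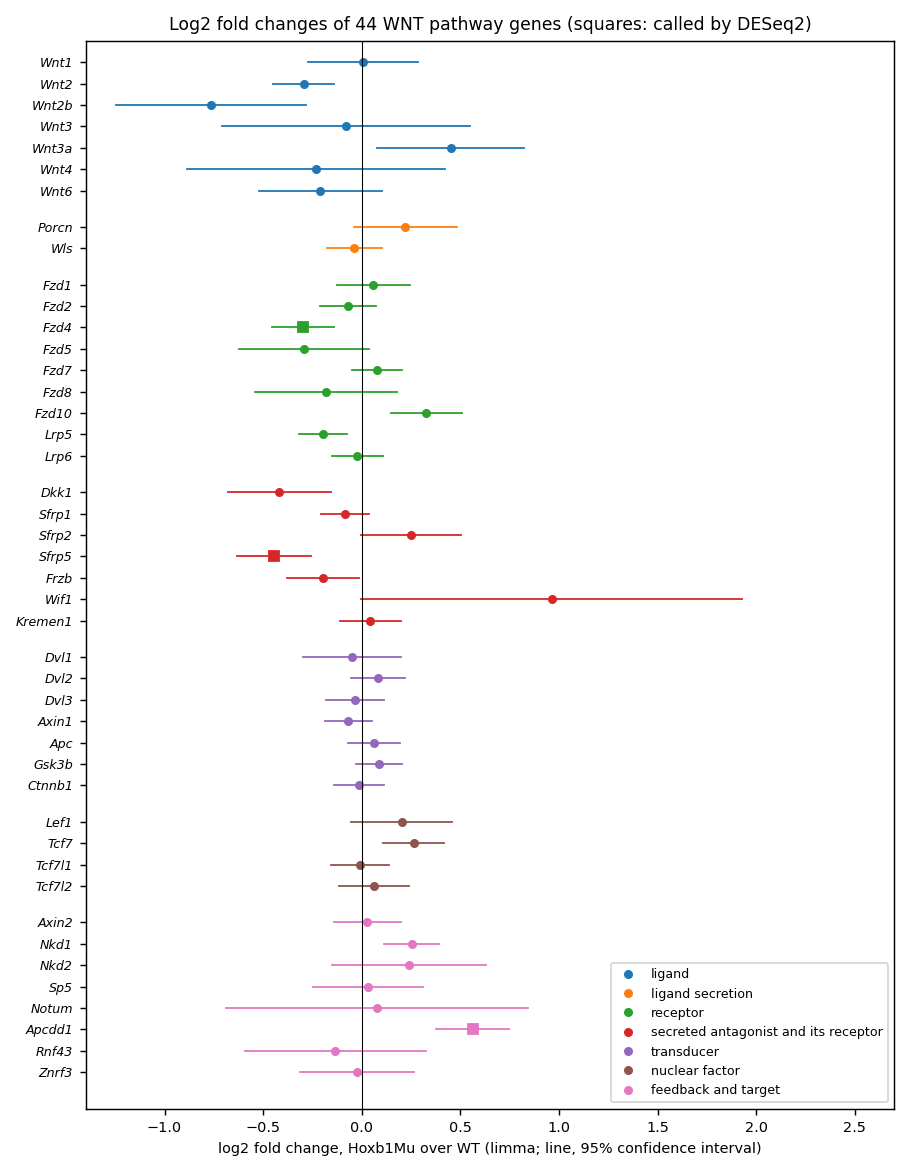
Log2 fold change of Hoxb1Mu over WT for the 44 members by role, with the 95% confidence interval of limma as a line (2 libraries per genotype). Squares mark the 3 members called by DESeq2; values run from -0.77 for Wnt2b to 0.96 for Wif1, and those of the 7 transducers lie between -0.068 and 0.089.

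Levels of different members were compared per kilobase of annotated exon over the 4 libraries. Ctnnb1, which encodes beta-catenin, was the most abundant by far with 10396 normalised counts per kb. It was followed by the antagonist Sfrp1 (2057), the receptors Fzd2 (2023) and Fzd7 (1880), and Wls (1056), which carries WNT proteins to the cell surface. Sfrp1 and Fzd2 did not differ beyond the spread of their libraries. Of the ligands, Wnt2 had the highest level (566), before Wnt6 (330) and Wnt1 (269). The lowest levels were those of Wif1 (16.7), Rnf43 (17.9) and Wnt3 (30.3). Exon lengths may differ from those of the annotation used for counting.

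**Figure D2:**
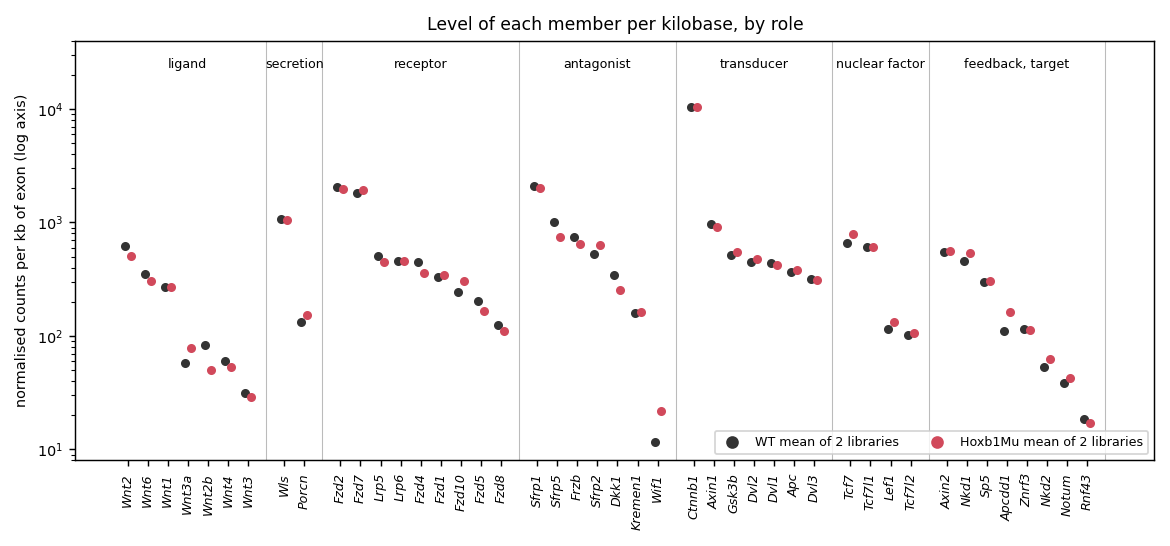
Mean normalised counts per kilobase of exon on a log axis for each member in WT (dark) and Hoxb1Mu (red), ordered within each role. Over the 4 libraries Ctnnb1 is highest at 10396 and Wif1 lowest at 16.7, and for most members the points of both genotypes nearly coincide.

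Among the 7 ligands, Wnt2 and Wnt2b had lower values and Wnt3a higher values in both Hoxb1Mu libraries, and none was called with all 4 libraries. Over all genes, 27.1% were lower and 26.4% higher in both Hoxb1Mu libraries in this way. Wnt2, which marks posterior SHF and inflow progenitors in mouse, had 1389 and 1424 normalised counts in WT and 1155 and 1138 in Hoxb1Mu. The groups lay apart by far more than the libraries of a group. The difference was -0.29 ± 0.063 (adjusted p = 0.155 in limma and 0.0732 in DESeq2).

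Wnt2b, a close relative that acts together with Wnt2 in mouse lung specification, had 380 and 324 in WT and 246 and 173 in Hoxb1Mu. The groups did not overlap, and Hoxb1Mu 2 was the lowest library. At -0.77 ± 0.20 this was the lowest log2 fold change of the members (adjusted p = 0.165 in limma and 0.0646 in DESeq2). The value depended on which mutant library was used. It was -1.02 without Hoxb1Mu 1, where limma (adjusted p = 0.0146) and DESeq2 (0.0409) called it, and -0.51 without Hoxb1Mu 2, where neither did (0.340 and 0.999). The yolk sac genes were also lowest in Hoxb1Mu 2, and their part in this value was not tested.

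Wnt3a, a ligand of the dorsal neural tube and tail bud, had 172 and 144 in WT and 220 and 211 in Hoxb1Mu, without overlap. It differed by 0.45 ± 0.15 (adjusted p = 0.216 in limma and 0.405 in DESeq2). Wnt1, another ligand of the dorsal neural tube, had 693 and 585 in WT and 608 and 672 in Hoxb1Mu, with both mutant values between those of WT (0.0058, 95% interval from -0.27 to 0.28). Of 9 dorsal neural tube markers DESeq2 called 4 as higher (Pax3, Pax6, Zic1 and Msx3) and 0 as lower. Over all genes with an adjusted p the shares were 2.01% and 2.71%. The 9 markers summed to 11143 and 10353 in WT and 11803 and 12540 in Hoxb1Mu. The highest values in these sums were those of Sox2 and Sox1, which are not confined to the dorsal part (0.0058 and 0.067, not called). Of 7 markers of paraxial mesoderm and tail bud, 4 were in the table and 0 were called, with sums from 2291 to 2878 in WT and from 2359 to 2527 in Hoxb1Mu. The part of either tissue in the Wnt3a value was not tested.

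The remaining ligands overlapped between genotypes. Wnt6, known from surface ectoderm, had 691 to 863 normalised counts in WT and 631 to 705 in Hoxb1Mu (-0.21 ± 0.13). Wnt3, needed for gastrulation, and Wnt4, better known from kidney and gonad, had log2 fold changes of -0.080 ± 0.26 and -0.23 ± 0.27, and the latter was 281 in Hoxb1Mu 1 but 163 in Hoxb1Mu 2. For ligand secretion, Wls had 9797 and 9028 in WT and 9376 and 8948 in Hoxb1Mu (-0.038, 95% interval from -0.18 to 0.10). These overlapped. Porcn, whose enzyme adds the lipid that WNT proteins need, had 421 and 369 against 458 and 461 (0.22 ± 0.11), which was not called.

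Among the 9 receptor genes Fzd4 fell by DESeq2, and Fzd10 and Lrp5 were the other receptor genes with an unadjusted limma p under 0.05. Fzd4 (mm10 chromosome 7, 89404355 to 89413134) encodes a receptor for WNT ligands and for Norrin. It had 3081 and 2898 normalised counts in WT and 2528 and 2340 in Hoxb1Mu. Each mutant library lay below each WT library. The difference was -0.30 ± 0.065, or 1.23-fold lower (adjusted p = 0.0192 in DESeq2 and 0.155 in limma). DESeq2 lost this call when any library was left out, with an adjusted p of 0.0990 without Hoxb1Mu 1 and from 0.361 to 0.999 in the other cases. limma made the call without Hoxb1Mu 1 (0.0426). Leaving out a library leaves a genotype with 1 library, so the spread is then less well known.

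Fzd10, known from the dorsal neural tube, had 810 and 769 in WT and 986 and 994 in Hoxb1Mu. The groups were apart and each was tight (0.33 ± 0.073, adjusted p = 0.155 in limma and 0.102 in DESeq2). Of the 9 dorsal neural tube markers, 7 had higher and 2 lower values, from 1.26 for Msx3 to -0.52 for Olig3, and their part was not tested. Fzd2, the most abundant receptor, had 7858 and 7327 in WT and 6983 and 7475 in Hoxb1Mu, which overlapped (-0.071 ± 0.059). Fzd7, nearly as abundant and related to Fzd1 and Fzd2, had 0.077 ± 0.053, and Fzd1 had 0.059 ± 0.075. Fzd5 and Fzd8, which form a further pair of related receptors, had -0.29 ± 0.13 and -0.18 ± 0.15, with Hoxb1Mu 1 as the lowest library for both, and 17.8% of the exon length of Fzd5 overlaps Gm38058 on the opposite strand.

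The co-receptor Lrp5 had 4901 and 5033 normalised counts in WT and 4422 and 4236 in Hoxb1Mu. The groups were apart, at -0.20 (95% interval from -0.32 to -0.077), and the adjusted p was 0.162 in limma and 0.0536 in DESeq2, so neither called it. Lrp5 is among the genes that the study itself picked out from these libraries, so its direction is not independent evidence. Lrp6 had 6543 and 6073 in WT and 6250 and 6164 in Hoxb1Mu, with both mutant values within the WT range. Its difference was -0.022 (95% interval from -0.15 to 0.11), or 0.0057 with libraries rescaled to equal totals. Whether the co-receptors differ from each other was not tested. Of 8 epithelial markers DESeq2 called 4 as lower (Cdh1, Cldn6, Cldn7 and Krt8) and 0 as higher. Over all genes with an adjusted p the shares were 2.71% and 2.01%. Cdh1, like Lrp5, was picked out by the study from these libraries. Grhl2 was at 0.26 and not called, and the 8 had sums of 34493 and 34222 in WT and 28848 and 24148 in Hoxb1Mu. Their part in the Lrp5 and Fzd4 values was not tested.

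**Figure D3:**
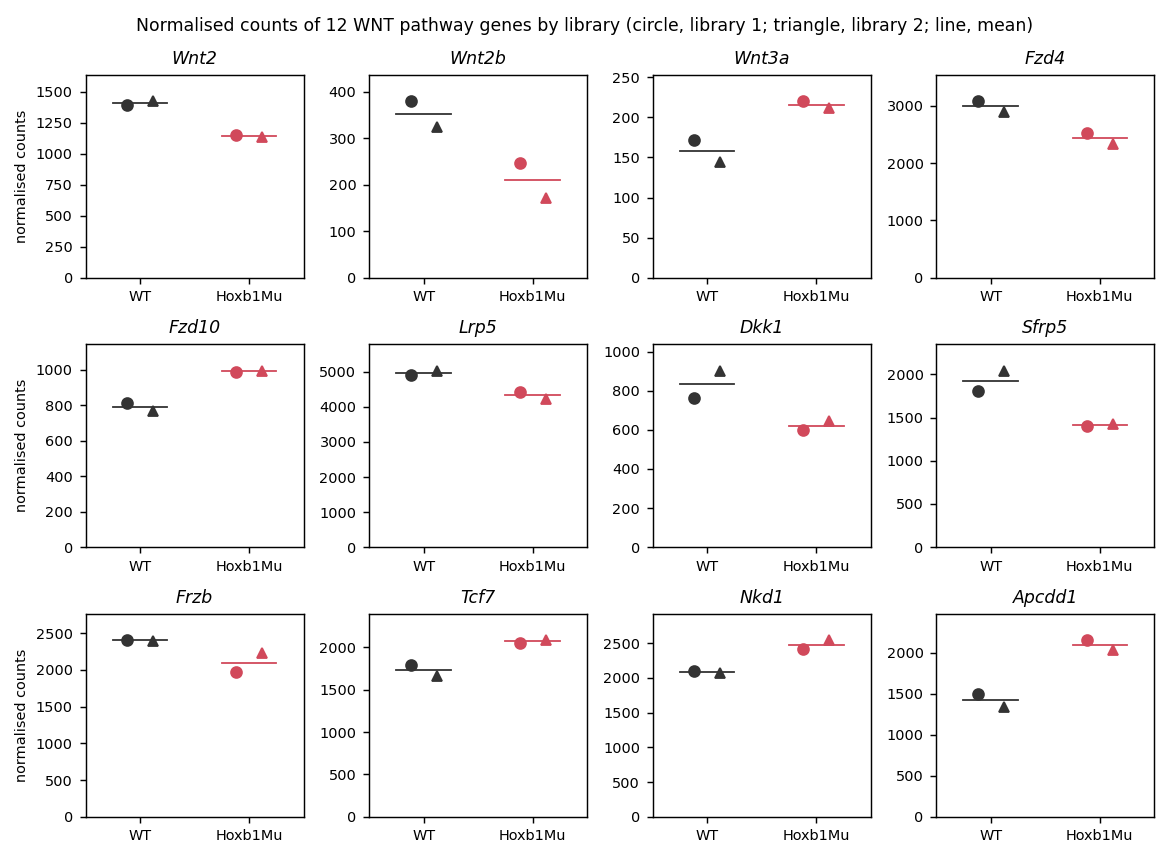
Normalised counts in each library for the 12 members with a mean of at least 100 and an unadjusted limma p under 0.05 (circles library 1, triangles library 2, lines the mean of 2 libraries, axes from 0). In each panel both Hoxb1Mu points lie on the same side of both WT points, which a choice by p favours. Over all genes, both lay above WT for 26.4% and below for 27.1%. Apcdd1 is the farthest above and Wnt2b the farthest below on the log2 scale.

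Of the 7 genes for antagonists and their receptor KREMEN1, 4 were below WT in both mutant libraries and 3 were above. Over all genes the shares below and above were 27.1% and 26.4%. Sfrp5 fell by DESeq2, Dkk1, Frzb and Sfrp1 were the others below, and Sfrp2, Wif1 and Kremen1 were above. Sfrp5 (mm10 chromosome 19, 42197971 to 42202252) encodes a soluble protein that binds WNT ligands, and marks ventral foregut and inflow progenitors in mouse. It had 1809 and 2043 normalised counts in WT and 1402 and 1420 in Hoxb1Mu. The mutant libraries were nearly equal and both were below WT. The difference was -0.45 ± 0.076, or 1.36-fold lower (adjusted p = 0.00180 in DESeq2 and 0.155 in limma). It was -0.44 without Hoxb1Mu 1 and -0.46 without Hoxb1Mu 2. The yolk sac genes were below WT in both mutant libraries, and their part was not tested. DESeq2 lost the call without any 1 library (adjusted p from 0.0745 to 0.541), while limma made it without Hoxb1Mu 1 (0.0420).

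Dkk1, whose protein blocks LRP5 and LRP6 and whose promoter is printed above, had 765 and 903 in WT and 599 and 645 in Hoxb1Mu. There was no overlap, and the WT libraries were the less alike (-0.42 ± 0.11, adjusted p = 0.164 in limma and 0.0841 in DESeq2). Frzb, a soluble WNT-binding antagonist like Sfrp5, had 2405 and 2397 in WT and 1965 and 2230 in Hoxb1Mu (-0.20 ± 0.074, adjusted p = 0.245 in limma and 0.282 in DESeq2). Hoxb1Mu 1 was the lower mutant library here. Sfrp1, the most abundant antagonist, had 9581 and 8941 in WT and 8779 and 8678 in Hoxb1Mu (-0.085, 95% interval from -0.21 to 0.039), a difference smaller than that between the WT libraries.

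Sfrp2, which belongs to the same family, had 1258 and 1031 in WT and 1370 and 1337 in Hoxb1Mu (0.25 ± 0.10), and 16.1% of its exon length overlaps Gm26771 on the opposite strand, where the strand setting of the counts is not known. Wif1, whose protein binds WNT ligands outside the cell, had the highest log2 fold change of the members (0.96 ± 0.39) at few reads, with 38.2 and 18.3 in WT and 54.3 and 50.9 in Hoxb1Mu. WT 2 decided much of its size, since it was 1.48 without WT 1 and 0.45 without WT 2. Kremen1, whose protein clears LRP6 together with DKK1, had 0.043 ± 0.063. The 8 foregut endoderm markers summed to 3621 and 3444 in WT and 3157 and 3225 in Hoxb1Mu, and 0 were called. Their log2 fold changes ran from -0.43 for Trh to 1.49 for Nkx2-1, which had few reads, with 3 higher and 5 lower. Their part in the antagonist values was not tested.

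For the 7 cytoplasmic transducers the values of both genotypes were close, and none had an unadjusted limma p under 0.05. Ctnnb1 had 56496 and 52075 normalised counts in WT and 54255 and 53071 in Hoxb1Mu. Both mutant values lay between the WT values, at -0.016 (95% interval from -0.14 to 0.11), or 0.013 with libraries rescaled to equal totals. Of its exon length, 14.6% overlaps Ulk4 on the opposite strand. The amount and location of beta-catenin protein, which the pathway controls, were not measured. Axin1, Apc and Gsk3b, of the complex that destroys beta-catenin, had -0.068 ± 0.048, 0.063 ± 0.054 and 0.089 ± 0.047. Dvl1, Dvl2 and Dvl3, which relay the signal from Frizzled, had -0.050 ± 0.10, 0.080 ± 0.056 and -0.034 ± 0.061, and 18.3% of the exon length of Dvl2 overlaps Acadvl.

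Of the 4 nuclear factors, Tcf7 had the largest difference and none was called. Tcf7, which mostly activates targets with beta-catenin, had 1790 and 1666 normalised counts in WT and 2057 and 2086 in Hoxb1Mu. The groups lay apart, at 0.26 ± 0.063 or 1.20-fold (adjusted p = 0.160 in limma and 0.0735 in DESeq2). Lef1, a related activator, had 934 and 1082 in WT and 1084 and 1236 in Hoxb1Mu. Its groups only just did not overlap (0.20 ± 0.10, adjusted p = 0.350 in limma and 0.498 in DESeq2), and 13.7% of its exon length overlaps Gm43352. Both genes are known from tissues outside the SHF, among them neural crest. Of 8 neural crest markers, 6 were called higher by DESeq2, beside 2.01% of all genes with an adjusted p. The 8 had sums of 6397 and 6422 in WT and 8455 and 9160 in Hoxb1Mu. The other 2, Snai2 and Foxd3, had lower values (-0.50 and -0.11) and were not called. The part of these cells was not tested. Tcf7l1, which mostly represses targets, had -0.0080 ± 0.060 (0.020 with libraries rescaled to equal totals), and Tcf7l2 had 0.062 ± 0.072.

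The 8 feedback and target genes did not move together: Apcdd1 rose by DESeq2, while the classical readout Axin2 overlapped between genotypes. Axin2, whose protein rebuilds the destruction complex, had 3141 and 2938 normalised counts in WT and 2954 and 3249 in Hoxb1Mu. The ranges crossed, at 0.028 (95% interval from -0.14 to 0.20). Sp5, which encodes a transcription factor that acts on WNT targets and whose promoter with TCF/LEF letters is printed above, also overlapped, with 622 and 628 in WT and 579 and 706 in Hoxb1Mu (0.033 ± 0.11). Of the ubiquitin ligases that take Frizzled from the cell surface, Znrf3 had -0.024 ± 0.12 (0.0042 with libraries rescaled to equal totals) and Rnf43 had -0.13 ± 0.19. Notum, whose enzyme removes the lipid from WNT proteins, ranged from 71.7 to 134 within Hoxb1Mu alone (0.078 ± 0.31), and 29.4% of its exon length overlaps Notumos and 8.72% Myadml2os on the opposite strand.

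Apcdd1 (mm10 chromosome 18, 62922231 to 62961179) encodes a membrane protein that binds WNT ligands and LRP5 and inhibits the pathway. It had 1493 and 1340 normalised counts in WT and 2151 and 2027 in Hoxb1Mu. The gap between the groups was wider than the spread within either. The difference was 0.56 ± 0.076, or 1.48-fold higher (adjusted p = 1.79e-05 in DESeq2 and 0.142 in limma). DESeq2 kept the call without WT 1 (0.00752), Hoxb1Mu 1 (0.0220) or Hoxb1Mu 2 (0.0151) and lost it without WT 2 (0.133), with values between 0.48 and 0.64. limma made the call without Hoxb1Mu 1 (0.0210). Nkd1, whose protein binds Dishevelled and dampens the signal, had 2093 and 2067 in WT and 2415 and 2542 in Hoxb1Mu. Its groups were apart (0.25 ± 0.057), but neither DESeq2 (adjusted p = 0.0523) nor limma (0.155) called it. Its relative Nkd2 had 289 and 223 in WT and 286 and 314 in Hoxb1Mu (0.24 ± 0.16), which overlapped.

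Of 59 further genes of the pathway, 55 were in the table, with a median log2 fold change of 0.018. limma called 0 of them, with 10 higher and 7 lower at an unadjusted p under 0.05, edgeR also called 0, and DESeq2 called 2 higher and 1 lower among 45 with an adjusted p. Over all genes the shares were 8.8% higher and 9.82% lower at that unadjusted p. For DESeq2 they were 2.01% and 2.71% of the genes with an adjusted p. Wnt8a, a ligand gene of the primitive streak and hindbrain, was called lower, with 333 and 458 normalised counts in WT and 134 and 211 in Hoxb1Mu (-1.21 ± 0.26, adjusted p = 0.00387 in DESeq2). DESeq2 kept the call without Hoxb1Mu 2 (0.00214), lost it without WT 1 (0.128) or Hoxb1Mu 1 (0.102), and gave no adjusted p without WT 2.

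The growth genes Ccnd2 and Myc, which many pathways besides WNT control, were called higher. Ccnd2, a cyclin gene, had 16841 and 14286 in WT and 20185 and 18614 in Hoxb1Mu (0.32 ± 0.086, adjusted p = 0.00704 in DESeq2). It kept the call without WT 1 (5.20e-06) or Hoxb1Mu 2 (0.0414) and lost it without WT 2 (0.265) or Hoxb1Mu 1 (0.193). Myc had 1990 and 1859 in WT and 2367 and 2446 in Hoxb1Mu (0.32 ± 0.062, adjusted p = 0.0118 in DESeq2), and lost the call without any 1 library (from 0.180 to 0.923). For both, the mutant libraries were above the WT libraries.

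The members, which differed in both directions, had an average near that of WT in each mutant library. Set against the WT mean, the average of their log2 values came to 0.00036 for Hoxb1Mu 1 and 0.0082 for Hoxb1Mu 2, and the WT libraries lay 0.029 to either side of their own mean. Such an average does not show how far single members differ. On the same scale SHF markers were also near WT, at -0.049 and 0.066, as were endothelial markers at 0.058 and -0.019. Yolk sac endoderm genes were at -0.62 and -1.80, cardiomyocyte genes at 0.78 and 0.92 and neural crest genes at 0.47 and 0.60. Of 8 cardiomyocyte markers with an adjusted p, DESeq2 called 7 as higher, beside 2.01% of all genes with an adjusted p. The study itself picked out Myl2, Myh7, Actn2, Nppa and Tnnt2 as higher from these libraries. The direction of this list is therefore not independent evidence. The part of these tissues in the values of single members was not tested.

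**Figure D4:**
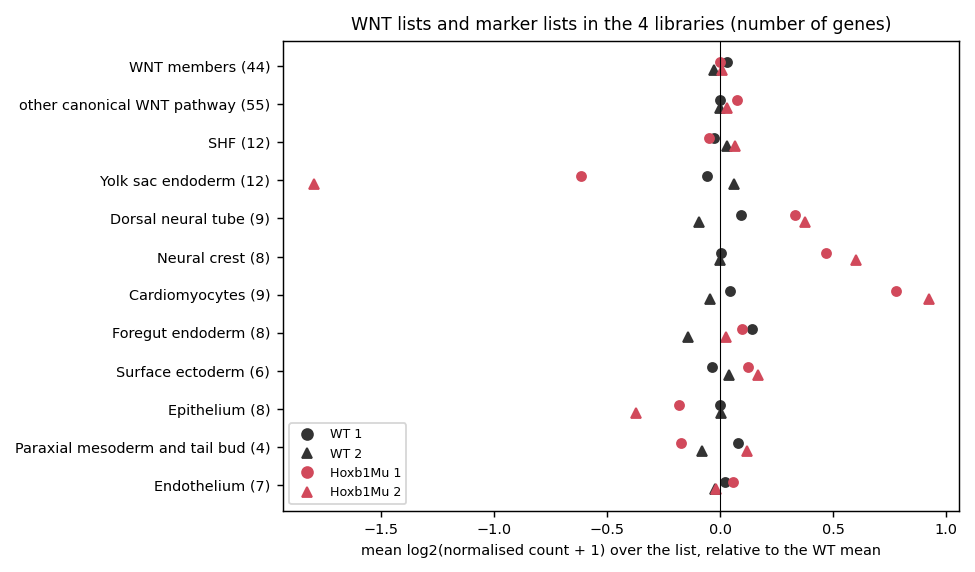
Mean log2 value of each gene list relative to the WT mean, in WT (dark) and Hoxb1Mu (red) libraries 1 (circle) and 2 (triangle), with the number of genes in brackets. The 44 members and the 55 further pathway genes lie near 0 in all 4 libraries, and so do the SHF and endothelium lists. Yolk sac endoderm lies at -0.62 and -1.80 and cardiomyocyte genes at 0.78 and 0.92 in Hoxb1Mu. Red blood cell genes are not drawn.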

How the data were processed

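Per the labels, cDNA was amplified from a small RNA input with the Ovation V2 system, using random and poly-T primers; no molecular identifiers are named, so PCR copies cannot be told from separate molecules. The submitters' processing notes name bcl2fastq 2.17.1.14, STAR 2.5.2, HTSeq, R 3.3.4 and DESeq2, with mm10. The methods of the study name an Ensembl annotation for a path with RSEM, and whether it also served for the HTSeq counts is not stated, nor is the strand setting. The table that the authors deposited holds, per library, a normalised signal, made from read counts and a size factor. It also holds their own comparison (mean, log2 fold change, Wald statistic, p and adjusted p), which was not used.

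Dividing each library by its own step returned whole reads for 100% of values (tolerance 0.001 of a read). limma-trend (limma 3.58.1, R 4.3.3) was the main test, on log2 of the normalised count plus 1, for 15760 genes whose mean reached 10; this scale understates the change of low genes. DESeq2 1.42.0 (3972 genes without an adjusted p) and the edgeR 4.0.16 quasi-likelihood test (15732 genes) were run on the recovered reads. A call means a Benjamini-Hochberg adjusted p under 0.05 over all genes, 2-sided. All 3 tools were tested on simulated data. There, unchanged genes made up a larger share of the calls than the threshold allows, most of all for DESeq2. Genes whose symbols had become dates (13) were tested but not named.

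The members, the lists and the motifs were chosen with earlier results of these data known. All members are named, and values of every library were given for members called by any tool or past an unadjusted limma p of 0.05 with a mean of at least 100, for the most abundant member per kb of each role, and for Ctnnb1, Lrp5, Lrp6, Axin2, Lef1, Wnt2 and Wnt3a. For the others they were added after their values were seen. Nothing in the labels says that libraries came from separate litters, so p-values measure the spread between these libraries. For a single value, an exact permutation test of 2 against 2 libraries cannot go below 0.333. Exon lengths and positions came from GENCODE vM21 (mm10), matched by symbol for all 44 members, and promoters from RefSeq (GRCm38.p6). The alternatives were a pseudocount of 5, no filter, a mean of at least 50, rescaling to equal totals and leaving out each library.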

Additional observations from a re-analysis of the deposited data

How the results depend on the processing

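With all 4 libraries, limma and edgeR called 0 members, 0 further pathway genes and 0 of all genes, as did limma with a pseudocount of 5, no filter, a mean of at least 50 or rescaling to equal totals, whereas DESeq2 called 3 members, 3 further pathway genes and 556 genes in all. DESeq2 was also run without each library, an alternative chosen after seeing the data. Over the fits of limma and DESeq2 without 1 library, the calls ranged from 0 to 4 members, from 0 to 2 further genes and from 0 to 884 of all genes. The upper ends for members and all genes came from limma without Hoxb1Mu 1, where Wnt2b, Fzd4, Sfrp5 and Apcdd1 were called. The cause was not tested. In these fits the lone library of a genotype is assumed to vary like the other group. With all 4 libraries Hoxb1 passed the threshold in DESeq2 only, at -2.09, and its value ranged from -2.24 to -1.95 without 1 library. The median of the members ranged from -0.027 to 0.036.

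The direction held under all of these settings for 28 members, among them all 12 with values drawn per library. For those 12, both Hoxb1Mu values lay on the same side of both WT values, so leaving out a library could not turn them. The direction turned under at least 1 setting for 16 members, whose absolute log2 fold change was at most 0.23. Rescaling to equal totals turned Lrp6 (0.0057), Ctnnb1 (0.013), Tcf7l1 (0.020) and Znrf3 (0.0042). Without 1 library, the log2 fold change ranged as follows: Wnt1 -0.12 to 0.13, Wnt3 -0.41 to 0.24, Wnt4 -0.63 to 0.16, Wls -0.10 to 0.021, Fzd1 -0.013 to 0.13, Fzd8 -0.40 to 0.039, Lrp6 -0.077 to 0.031, Dvl1 -0.20 to 0.10, Dvl3 -0.082 to 0.016, Ctnnb1 -0.075 to 0.043, Tcf7l1 -0.062 to 0.045, Axin2 -0.041 to 0.10, Sp5 -0.11 to 0.18, Notum -0.37 to 0.53, Rnf43 -0.30 to 0.034 and Znrf3 -0.15 to 0.11. Their direction is therefore not set by these data. Wif1, Notum and Wnt3 were too low for an adjusted p in DESeq2, so depth limits what can be said of them. No paired analysis was possible because the labels give no pairing and the replicate numbers follow accession order.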
